A study of Mus with 5 samples.

Results

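The genes described here were 43 chromatin modifier genes, which encode enzymes that write or erase marks on histones and DNA, readers of those marks, and proteins that move or remodel nucleosomes. They were followed in 4 lists of ChIP-seq peaks from mouse CD8 T cells, 2 for the retinoic acid receptor RARα and 2 for BATF, a transcription factor of the AP-1 family. In ChIP-seq, an antibody pulls down the DNA fragments that a protein is bound to, and a peak is a place where more of them fall than in a control library. A peak was assigned to one of these genes when the annotation deposited with the lists gave that gene among the names of the peak, and each peak was counted once. The gene table used as the whole series held 21900 protein-coding genes.

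The cells came from the spleen of wild-type mice and were activated for 24 h through CD3 and CD28 in the presence of IL-2. A rest of 24 h in IL-2 followed, and the cells were then kept for 1 h without (control) or with 50 nM RA, the ligand of RARα. The treatment labels name other interleukins for some samples where the protocol names IL-2, and the cell type label reads naive although all cells had been activated. Every list was called on 2 pooled ChIP files against the same file of normal rabbit IgG, for which the labels do not say whether the cells received RA.

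Whether the pooled files are separate cultures is not stated, so there is 1 list per condition, no spread between replicates and no test between conditions. Differences between control and RA are therefore descriptions of these lists. Intervals on shares are Wilson 95% intervals, which cover counting error only. A ChIP-seq level also does not separate weaker binding in every cell from binding in fewer cells. The RARα lists rested on 22655611 fragments (control) and 22475060 (RA). The BATF lists rested on 23110180 (control) and 16424269 (RA), so that the RA depth was 71.1% of the control depth. As a check on the cells, the 5 T cell genes Cd3e, Cd3d, Cd3g, Cd8a and Cd8b1 were all named at BATF peaks in both lists. Among marker genes of other immune cells, Ms4a1 was named in both lists, while Cd4, Cd14 and Adgre1 were named in neither. Such peaks show binding near a gene and not its expression.

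Polycomb repressive complexes silence genes, PRC2 by methylating lysine 27 of histone H3 and PRC1 by ubiquitinating histone H2A. Acetyltransferases and deacetylases set the acetylation of active chromatin, DNA methyltransferases and TET enzymes add and oxidise the methyl mark on cytosine, and BAF and CHD remodellers use ATP to move nucleosomes. In CD8 T cells these enzymes are known for holding naive, effector, memory and exhausted gene programmes in place. BATF pairs with JUN proteins on AP-1 sites, often beside IRF4, and is induced by T cell activation. RARα sits on DNA with RXR, and the corepressor and coactivator complexes that it exchanges upon ligand binding contain some of the deacetylases and acetyltransferases listed here.

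BATF peaks were found at nearly all of these genes, in the control and with RA. The BATF control list named 41 of the 43 genes (95.3%, 84.5 to 98.7) at 160 peaks, where 46.2% of protein-coding genes were named. The BATF RA list named 39 (90.7%, 78.4 to 96.3) at 104 peaks, where 36.4% of protein-coding genes were named. A peak of the promoter class stood at 38 of the genes in the control and at 35 with RA, against 36.0% and 26.4% of protein-coding genes. Limited to peaks inside a gene or within 10 kb of it, 41 and 37 genes remained, against 39.4% and 29.9%. These genes are long, with a median of 65.0 kb against 17.1 kb for protein-coding genes, and the part of length in the counts was not tested. A further list of 94 chromatin genes, such as Ring1, Kat5 and Pbrm1, was named less often than these 43 and more often than protein-coding genes at large, with 83.0% of its genes in the BATF control list and 70.2% with RA.

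The number of BATF peaks at these genes was lower with RA by about as much as that of the whole list. The RA list held 65.0% as many peaks at these genes as the control list, and 62.6% as many over all peaks. Of the 41 genes named in either BATF list, 27 had fewer peaks with RA, 13 had as many and 1 had more, where 54.3%, 39.0% and 6.73% of named protein-coding genes did. The median number per gene was 3 in the control and 2 with RA, where a median of 1 was found over all named protein-coding genes in both lists. Peaks were also shared out unevenly, since the 5 genes with the most control peaks held 50 of the 160 (31.2%), and 6 genes had exactly 1.

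**Figure D1:**
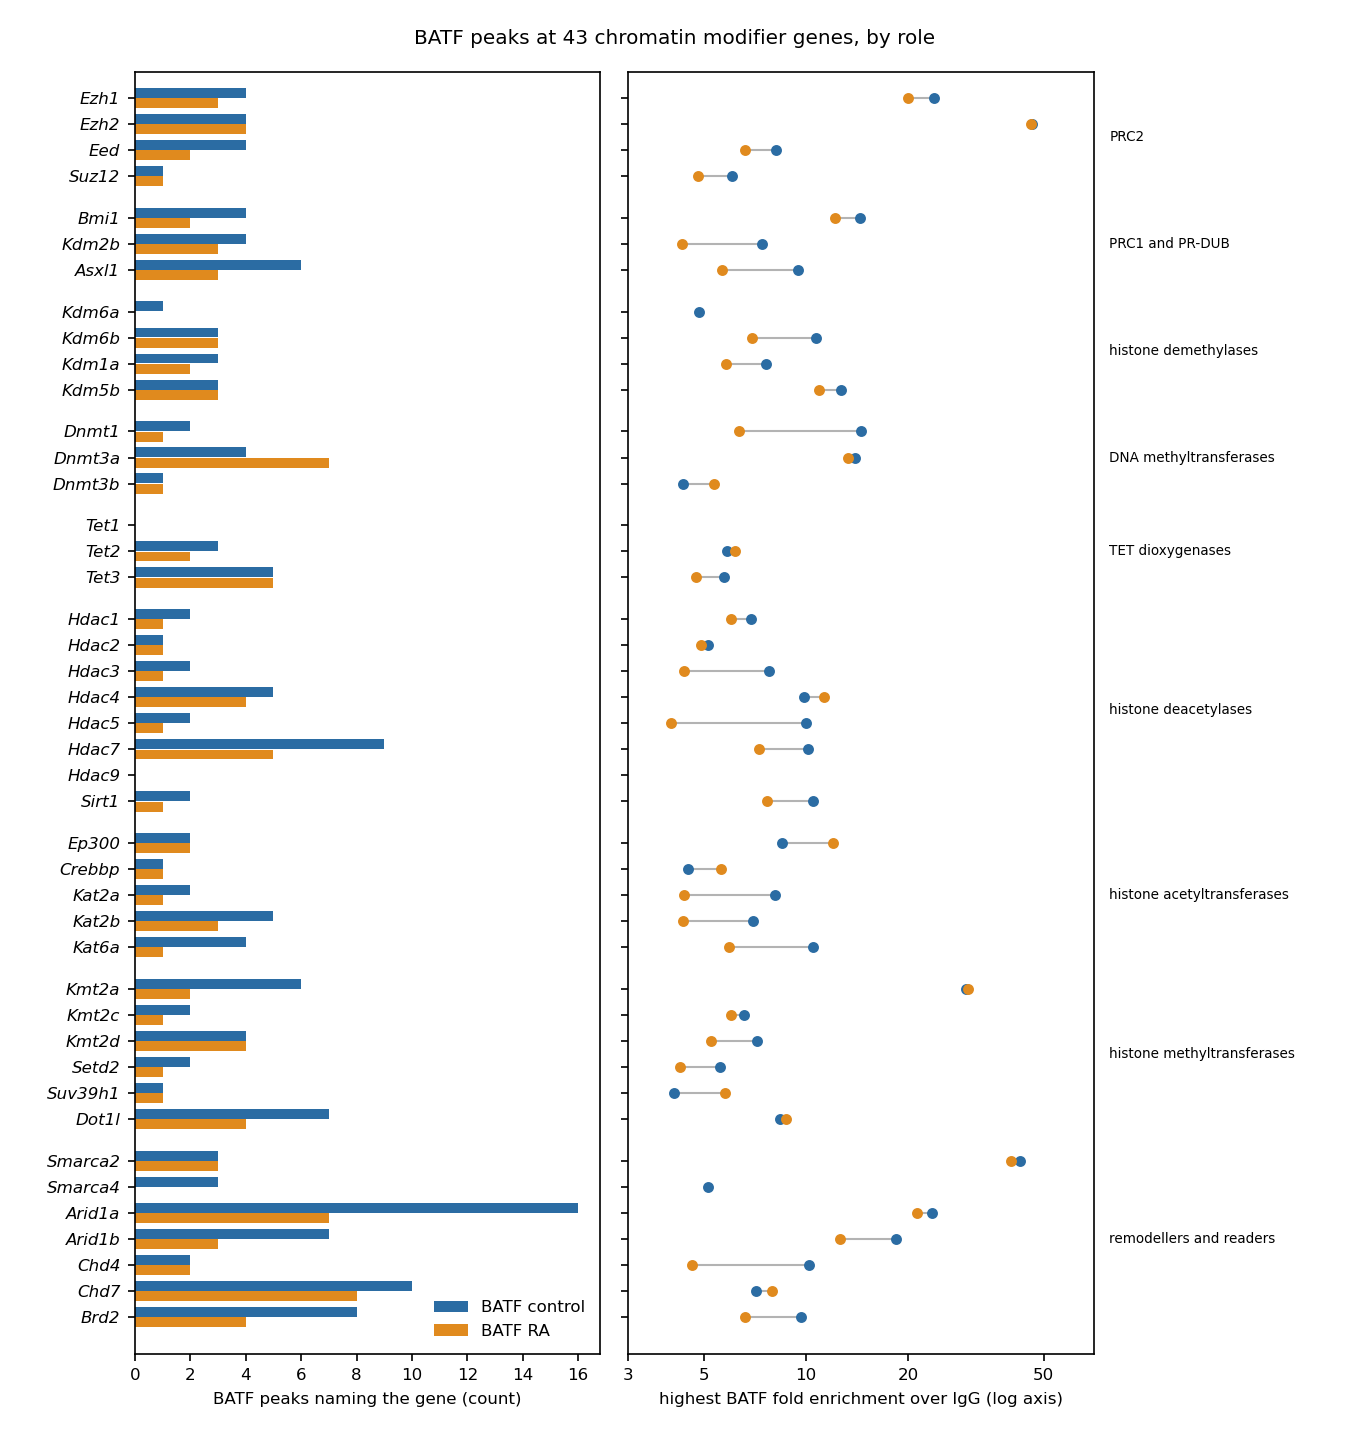
BATF peaks at the 43 genes, grouped by role. The left panel gives the number of peaks that name each gene (bars, control and RA) and the right panel the highest fold enrichment over IgG of a peak of that gene in each list (points, log axis), which need not be the same site. Arid1a has the most control peaks (16), Dnmt3a is the gene with more peaks with RA, and the Ezh2, Smarca2 and Kmt2a points of both lists nearly coincide.

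The PRC2 genes carried some of the strongest BATF sites. Fold enrichment here is the pileup at the summit plus 1, over the local IgG level plus 1, as the peak caller gave it. The IgG level came from the same file but was scaled for each list, with a lowest value of 2.86 (BATF control) and 2.03 (BATF RA). IgG levels of the 2 lists are thus not on 1 scale, and paired summits need not share a position. The pileup is the number of fragments, which in the BATF control list had been multiplied by 0.9875. The highest fold among the 43 genes was found at an intergenic peak 25659 bp from Ezh2, the main H3K27 methyltransferase of dividing cells. This peak stood at chr6:47620929-47621592 (mm10). It had a fold of 46.1 in the control, from 181 fragments, and 45.9 with RA, from 138 fragments. That peak ranked 14 among all 15812 control peaks and 11 among the 9899 RA peaks, and Ezh2 was the nearest protein-coding gene to it, although the annotation also named other genes there.

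At the promoter of Ezh2, a pair of peaks at chr6:47593210-47594433 and chr6:47594827-47595945 had control folds of 9.71 and 12.0. With RA these were 7.99 and 8.80. A second distal peak, 40787 bp from the gene at chr6:47636057-47636900, had 7.90 in the control and 5.45 with RA. Thus the strongest Ezh2 site had nearly equal folds in both lists, while the other 3 sites, distal and promoter, were lower with RA. Ezh1, the related methyltransferase of resting cells, had its strongest site in an exon at chr11:101194509-101195341, with a fold of 23.8 in the control and 19.9 with RA. Another Ezh1 peak, 46785 bp from the gene and nearer to Tubg2, had 11.5 and 6.75.

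Eed, which reads the H3K27 methyl mark, had 4 control and 2 RA peaks, of which the strongest in the control reached a fold of 8.15, 86638 bp from the gene and nearer to Picalm. Its promoter peak had a fold of 5.22 in the control and 6.55 with RA, yet fewer summit fragments per 1000000 fragments of the library with RA (1.56 and 1.40), the scaled IgG level being 6.0 and 2.67. Suz12, the scaffold of PRC2, had 1 promoter peak in each list, with 6.05 and 4.80. In sum, 13 control peaks and 10 RA peaks named the 4 PRC2 genes, and 11 of the 13 had an RA peak within 5 kb.

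At the 3 genes of PRC1 and the H2A deubiquitinase complex, the counts were 14 control and 8 RA peaks. Among the 9 roles this one kept the smallest share, with an RA peak within 5 kb of 8 of the 14 (57.1%) and an overlapping one for 5 (35.7%). Over all control peaks these shares were 69.9% and 54.4%. With 14 peaks of 3 genes, the lowest of 9 small groups cannot be read as a trait of this role. Bmi1, a PRC1 subunit, was named at a strong peak at chr2:18664001-18664568, 12450 bp from the gene, with 14.4 in the control and 12.2 with RA, although Commd3 lay nearer. Asxl1, a partner of the deubiquitinase BAP1, had 6 control peaks and 3 with RA, the strongest of them in an intron with 9.45 and 5.67. Kdm2b, which brings PRC1 to CpG islands, had a peak of the promoter class inside the gene at chr5:122900038-122900844, with a control fold of 7.42, and no RA peak within 5 kb of it, whereas the peak at chr5:122988198-122991024 was called in both lists, with 6.26 and 3.20.

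Among the demethylases, Kdm6b, which removes H3K27 methylation, had 3 peaks in each list, although 1 of its control peaks had no overlapping RA peak. Its strongest, inside the gene by the gene table but of the intergenic class, had 10.7 in the control and 6.94 with RA. Its X-linked relative Kdm6a had 1 weak promoter peak in the control (4.86, 18 fragments) and none with RA. Kdm5b, which removes H3K4 methylation, also had 3 peaks in each list, the strongest 2742 bp from the gene, inside the neighbouring gene Mgat4e, with 12.7 and 10.9. Kdm1a, or LSD1, had 3 control and 2 RA peaks and a promoter fold of 6.14 and 5.05.

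The DNA methyltransferases behaved differently from each other. Dnmt1, which copies methylation onto the new strand after replication, had the lowest ratio of RA to control fold among the 94 overlapping pairs at the 43 genes. Its promoter peak at chr9:20951870-20953407 had 14.5 in the control and 6.34 with RA, a log2 ratio of -1.20. The fragments at the summit were 102 in the control, or 4.41 per 1000000, and 51 with RA, or 3.11 per 1000000, while the scaled IgG level was 6.0 at the control summit and 7.20 at the RA summit. A peak 1460 bp outside Dnmt1, at chr9:20961348-20961838 and with a control fold of 8.88, had no RA peak within 5 kb.

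Dnmt3a, a de novo methyltransferase, was the 1 gene of the 43 with more BATF peaks with RA, 7 against 4 in the control. Over protein-coding genes named in either BATF list, 6.73% had more. The 4 control sites were all called with RA at similar or lower folds: 13.9 and 13.3 at chr12:3834352-3835250, 12.8 and 9.92 at chr12:3846073-3846617, 5.53 and 4.90 at chr12:3870924-3871397, and 6.88 and 5.41 at chr12:3890974-3891562. The 3 further RA peaks were weak. They stood at chr12:3806488-3806747 with 12 fragments and a fold of 4.11, at chr12:3823584-3823816 with 15 fragments and 4.57, and at chr12:3855852-3856155 with 18 fragments and 4.22. The lists give no value where no peak was called, so the control level at these 3 sites is unknown. Dnmt3b, the other de novo enzyme, had 1 promoter peak in each list, with 4.35 in the control and 5.38 with RA.

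Of the TET enzymes, which oxidise methylcytosine, Tet1 was the 1 gene of the 43 with no peak in any of the 4 lists. Tet3 had 5 peaks in each list, all inside the gene by the gene table, with control folds of 2.96 to 5.73 and RA folds of 3.75 to 4.74. The deposited annotation gave some of these the intergenic class, and they are counted so below. Tet2 had 3 control and 2 RA peaks. Its strongest, 81502 bp from the gene, had 5.86 in the control and 6.19 with RA. Its promoter peak had 3.83 and 5.05, but 1.30 and 0.913 summit fragments per 1000000, so the 2 measures gave opposite directions. The scaled IgG level there was 7.0 and 2.17, or 2.45 and 1.07 times the lowest level of its list.

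**Figure D2:**
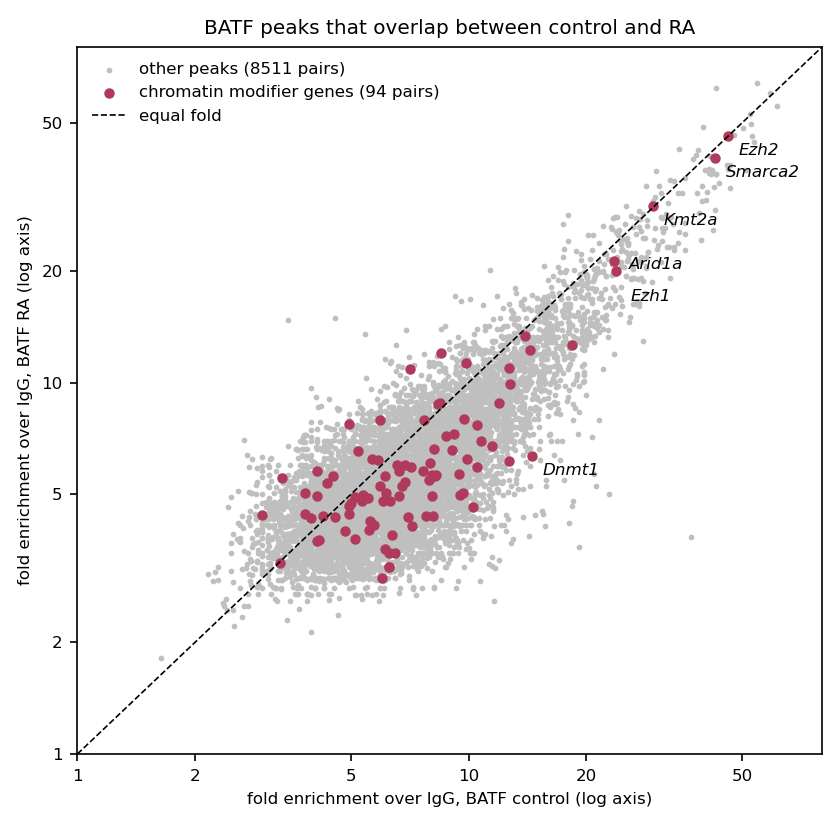
Fold enrichment over IgG of BATF peaks that overlap between control (horizontal, log axis) and RA (vertical, log axis), with 94 pairs at chromatin modifier genes (red) over 8511 other pairs (grey) and the line of equal fold. Of the 94 pairs, 72 lie below the line, as do 75.5% of all pairs. Ezh2, Smarca2 and Kmt2a lie close to the line at high folds and Dnmt1 far below it.

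The deacetylases, which remove acetyl groups from histones, had 23 control and 14 RA peaks. Hdac7, a class IIa enzyme abundant in T cells, held 9 of the 23 within 51.8 kb of gene and its flanks, and 5 of the RA peaks. Its strongest control peak, at the promoter (chr15:97843008-97844721), had 10.1 and no overlapping RA peak, the nearest being 624 bp away with a fold of 4.80. Hdac4, of the same class, had 4 of its 5 control peaks in introns, of which one at chr1:92119302-92119540 (7.11) had no RA peak within 5 kb. The strongest Hdac4 peak had a fold of 9.88 in the control and 11.3 with RA, but fewer summit fragments per 1000000 with RA (3.85 and 3.59), with a scaled IgG level of 8.0 and 4.32. Hdac4 also had an exon peak in the RA list alone, at chr1:91984413-91984649, with 13 fragments and a fold of 4.63.

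Hdac5 had the strongest control peak at these genes without an RA peak within 5 kb. It lay at chr11:102218518-102219268, with 43 fragments and a fold of 9.97. The annotation gave it the exon class, while its detailed entry read intron 4. Sirt1, an NAD-dependent deacetylase, had 10.5 at its promoter in the control and 7.70 with RA. The class I genes Hdac1, Hdac2 and Hdac3 had 1 or 2 control peaks each and 1 RA peak each, with highest folds of 5.14 to 7.76 in the control. Hdac9 was named in neither BATF list.

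The acetyltransferases had 14 control and 8 RA peaks, and 12 of the 14 had an RA peak within 5 kb. Ep300, the p300 coactivator, differed between its sites: a peak 51432 bp from the gene at chr15:81534437-81534777 was higher with RA, at 8.51 and 12.0, and the promoter peak lower, at 6.13 and 3.57. The distal site had 51 fragments in the control (2.21 per 1000000) and 53 with RA (3.23 per 1000000). Crebbp, its paralogue, had 1 promoter peak with 4.50 and 5.62. Kat6a, or MOZ, had 4 control peaks and 1 with RA, at the promoter, with 10.5 and 5.93, and a site 20510 bp from the gene (6.92) had no RA peak within 5 kb. At Kat2a and Kat2b, the GCN5 and PCAF genes, the stronger promoter peaks had 8.10 and 7.00 in the control and 4.38 and 4.35 with RA. The weaker promoter peak of each, with 3.95 and 3.70 in the control, had no overlapping RA peak.

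The histone methyltransferases other than PRC2 had an RA peak within 5 kb of 21 of 22 control peaks (95.5%), but by direct overlap 13 of the 22 were kept (59.1%), near the 58.8% of the whole set. Kmt2a, the H3K4 methyltransferase MLL, had the third highest site of the 43 genes, in an intron at chr9:44867446-44869569, with 29.6 in the control and 29.9 with RA. Its fragments were 209 in the control (9.04 per 1000000) and 158 with RA (9.62 per 1000000). Around its promoter, 1 of the weaker peaks overlapped an RA peak, at 8.44 and 8.79, and the gene went from 6 peaks to 2. Dot1l, the H3K79 methyltransferase, went from 7 to 4, and an intronic site at chr10:80763429-80763855 was higher with RA (4.94 and 7.73, with 29 fragments in each list). Its strongest named peak, with 8.36 and 8.73, lay 76639 bp away beside Mknk2. The promoter peak of Setd2 had 5.59 and 4.25. The 3 promoter peaks of Kmt2d had 6.65, 4.09 and 5.93 in the control and 4.96, 4.96 and 5.27 with RA, so that 1 was higher and the others lower. Suv39h1, which methylates H3K9, had a single weak promoter peak with 4.09 and 5.76.

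The remodellers and readers held the most peaks, 49 in the control and 27 with RA. Smarca2, the BRM ATPase of BAF complexes, had the second highest site of the 43 genes, in an intron at chr19:26646038-26646679, with 42.7 in the control and 40.1 with RA. Both of its promoter peaks were lower with RA, at 8.05 and 4.96 and at 8.19 and 5.62. Smarca4, the alternative ATPase BRG1, had 3 control peaks with folds of 4.28 to 5.15, from 21 to 43 fragments, and none with RA. A BATF RA peak that did not name Smarca4 lay 5393 bp from the nearest of these, just beyond the 5 kb limit. Smarca4 and Kdm6a were the 2 of 41 genes (4.88%, 1.35 to 16.1) that were named in the control and not with RA. Of protein-coding genes named in the control, 23.4% were not named with RA.

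Arid1a, a DNA-binding subunit of BAF, had the most BATF peaks of the 43 genes, 16 in the control and 7 with RA. Of its control peaks, 8 lay in the gene or within 10 kb and 8 lay farther off, from 56232 to 86157 bp away, toward Rps6ka1. The strongest, at chr4:133840770-133841712, was nearest to Rps6ka1 and had 23.5 and 21.2. The promoter class of the annotation also takes in peaks in a first intron, such as the strongest of the 4 promoter peaks of Arid1a (chr4:133750915-133753523), where the fold was 12.7 in the control, from 51 fragments, and 6.13 with RA, from 18 fragments, a log2 ratio of -1.05. Of the others, a peak at an annotated start had 3.95 and 4.32, another had 6.49 and 3.48, and the weakest (3.79) had no overlapping RA peak. A site 68935 bp away had 7.09 in the control and 10.9 with RA, and more summit fragments per 1000000 as well (1.17 and 1.95).

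Arid1b, its paralogue, had 7 control and 3 RA peaks, the strongest 1953 bp from the gene at chr17:4991884-4992344 with 18.4 and 12.6. Chd4, the ATPase of the NuRD complex, had promoter peaks of 10.2 and 6.02 in the control and 4.63 and 2.98 with RA. Chd7 had 10 control and 8 RA peaks. Its site at chr4:8926419-8929032, 57970 bp away, had the highest ratio of RA to control fold among the overlapping pairs. The folds were 3.34 in the control and 5.52 with RA, yet summit fragments per 1000000 were fewer (1.86 and 1.34). The scaled IgG level was 12.0 at the control summit and 3.17 at the RA summit. This control peak, 2614 bp wide, also overlapped RA peaks with folds of 4.06 and 5.63, and the nearest midpoint decided the pair. Brd2, a reader of acetylated histones in the major histocompatibility region, had 8 control and 4 RA peaks. Its stronger promoter peaks had folds of 9.68, 6.37 and 9.51 in the control against 5.05, 3.88 and 4.97 with RA. A weaker peak of the promoter class (3.68 in the control) had no overlapping RA peak.

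**Figure D3:**
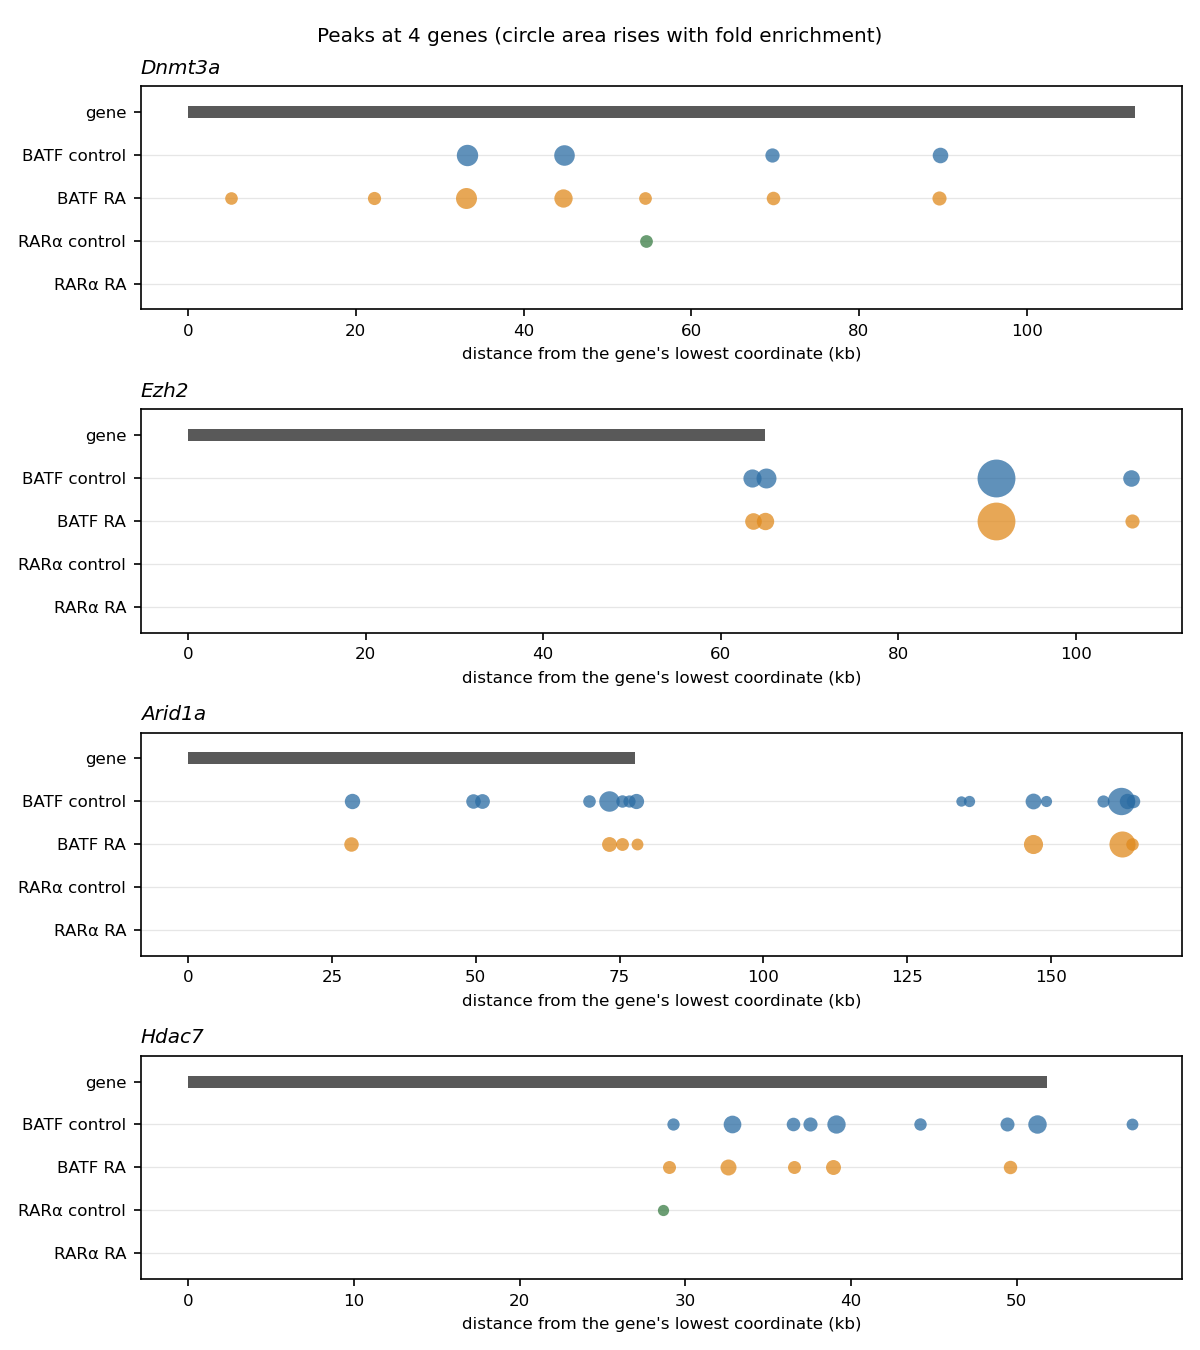
Peaks at Dnmt3a, Ezh2, Arid1a and Hdac7 in the 4 lists, by distance in kb from the lowest coordinate of the gene (grey bar). Circle area rises with fold enrichment. Dnmt3a has 3 small circles in the BATF RA row that are missing from the control row, the large Ezh2 circle is alike in both rows, and 8 of the 16 Arid1a control circles lie far beyond the gene.

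Over the whole set, and counted by any name of a peak, BATF peaks naming these genes were less often of the promoter class than BATF peaks in general. In the control list 69 of the 160 were of the promoter class (43.1%, 35.7 to 50.9), against 58.7% of all peaks, and with RA 49 of the 104 (47.1%, 37.8 to 56.6), against 64.6%. The rest of the control peaks comprised 51 intergenic, 34 intronic and 6 exonic peaks. Of the 160 peaks, 105 overlapped the gene itself, 123 lay within 10 kb of it and the farthest lay 89398 bp away. The gene was the nearest protein-coding gene for 124 of the 160 peaks, and 101 peaks named no other gene. Over all control peaks, 11775 of 15812 had a single name. The part of this counting by any name in the promoter share was not tested. For the peaks that named this gene alone the promoter share was 54.5%. The share over all peaks with a single name was not computed, so the 58.7% above is not its counterpart. Median folds were 5.77 in the control (5.40 over all peaks) and 5.32 with RA (5.29).

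Most sites were called in both conditions. An RA peak lay no farther than 5 kb from 125 of the 160 control peaks (78.1%, 71.1 to 83.8), where 69.9% of all control peaks had one. Of the 104 RA peaks, 100 had a control peak within 5 kb (96.2%, 90.5 to 98.5), where 96.3% of all RA peaks had one. With direct overlap in place of 5 kb, the control share was 58.8%, against 54.4% of all peaks. The stronger the control peak, the higher this share was. It was 18 of 30 below a fold of 4, 40 of 56 from 4 to 6, 48 of 55 from 6 to 10 and 19 of 19 at 10 or more, and over all control peaks it went from 49.5% to 98.1% across the same steps.

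By class, promoter peaks at these genes were kept in 63 of 69 cases (91.3%, 82.3 to 96.0), where 74.3% of all promoter peaks were kept. Intergenic peaks were kept in 31 of 51 cases (60.8%, 47.1 to 73.0), where 62.3% of all intergenic peaks were kept, and intronic peaks in 26 of 34 (76.5%, 60.0 to 87.6), where 64.5% were kept. Peaks within 10 kb of the gene were kept in 104 of 123 cases (84.6%) and those farther off in 21 of 37 (56.8%). The 35 control peaks without an RA peak within 5 kb came from 21 genes and had a median fold of 4.80, against 6.13 for those kept. They comprised 20 intergenic, 8 intronic, 6 promoter and 1 exonic peak. Several peaks of a promoter can fall within 5 kb of the same RA peak, since the 125 kept control peaks were paired with 96 different RA peaks. By direct overlap 46 of the 69 promoter peaks were kept (66.7%, 54.9 to 76.6), where 61.2% of all promoter peaks were.

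**Figure D4:**
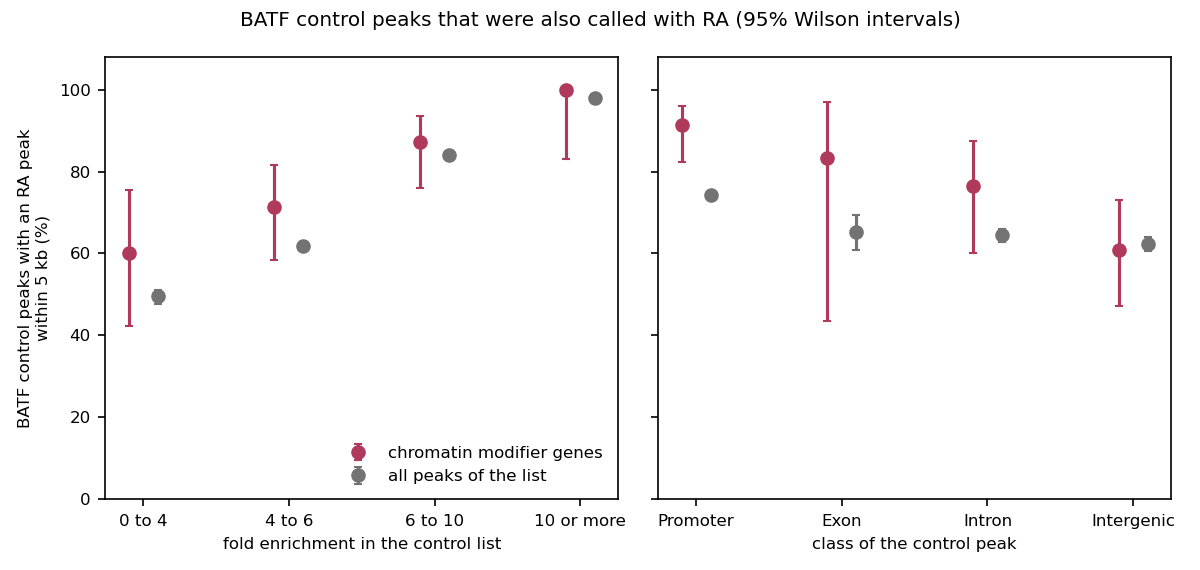
Share of BATF control peaks that had a peak of the RA list no farther than 5 kb away (percent, with Wilson 95% intervals) by control fold enrichment (left) and by class of the peak (right), for peaks at chromatin modifier genes (red) and all control peaks (grey). Peaks at these genes go from 60.0% below a fold of 4 to 19 of 19 at 10 or more, and the promoter point stands at 91.3% against 74.3%.

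At sites called in both conditions the fold was mostly lower with RA, as it was over the whole list. Of the 94 overlapping pairs at these genes, 72 had a lower fold with RA (76.6%, 67.1 to 84.0), where 75.5% of all overlapping pairs did. Joining peaks up to 5 kb apart, 79 of 125 pairs were lower (63.2%, 54.5 to 71.1), where 66.9% of all such pairs were. By overlap, the median log2 ratio of RA to control was -0.28 at these genes and -0.27 over all pairs. By fragments at the summit per 1000000, which leaves the IgG level out, 74 of the 94 were lower and the median was -0.26. Of the 22 pairs with a higher fold with RA, 13 were also higher by that measure and 9 were lower. As a plain ratio of summit fragments to IgG, with nothing added to either, 64 of the 94 were lower, with a median of -0.17. The BATF RA list had fewer fragments than its control, as given above, and the part of depth in these differences was not tested.

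The promoter pairs at these genes had a median log2 ratio of -0.39 (37 of 46 lower) and the other pairs -0.19 (35 of 48 lower). Over all pairs these medians were -0.33 (78.5% lower) and -0.18 (69.5% lower). Among control folds of 10 or more, the 6 promoter pairs, at Arid1a, Chd4, Dnmt1, Ezh2, Kat6a and Sirt1, were all lower with a median of -0.94, and 11 of the 12 other pairs were lower with a median of -0.23. Over all peaks of that strength these medians were -0.56 (95.2% lower) and -0.23 (78.5% lower). Picking pairs by a high control fold favours a lower RA fold by itself, and the part of this was not tested. The 5 of 160 control peaks with a fold of 20 or more, at Ezh2, Smarca2, Kmt2a, Ezh1 and Arid1a, lay outside promoters. They had log2 ratios from -0.26 to 0.01. Over all control peaks, 259 of 15812 reached that fold. The classes and log2 ratios of those were not computed, so neither can be read as a trait of these genes.

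RARα peaks at these genes were far fewer than BATF peaks. The RARα control list named 6 of the 43 genes (14.0%, 6.56 to 27.3) at 7 peaks, where 6.85% of protein-coding genes were named, and the RARα RA list named 2 (4.65%, 1.28 to 15.5) at 2 peaks, where 3.05% were named. All 6 genes of the control list were also named in the BATF control list, as were 82.8% of all protein-coding genes named in the RARα control list. Within 10 kb of the gene, 3 genes had a RARα control peak and 1 a RARα RA peak, where 3.16% and 1.23% of protein-coding genes did. None of the 9 peaks was of the promoter class, to which 19.5% of all RARα control and 7.71% of all RARα RA peaks belonged. Their median fold was 3.35 in the control (3.09 over all peaks of that list) and 2.53 with RA (2.87). No gene was named in both RARα lists, and no peak had a counterpart within 5 kb, where 10.2% of all control and 19.6% of all RA peaks had one. In the further list of 94 chromatin genes, 9 were named in the RARα control list, among them the PRC2 partner Phf19, and 2 with RA.

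The strongest RARα peak that named one of the genes, Brd2, stood at chr17:34162523-34163340 with 37 fragments and a fold of 7.64. It lay 39709 bp from Brd2 and 2294 bp from H2-DMb1, its nearest protein-coding gene, and the annotation gave it 13 names. A weaker one beside it, at chr17:34164128-34164398, had 19 fragments and a fold of 3.35. Both lay among the antigen-processing genes of that region, away from Brd2 itself.

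Inside the genes themselves there were 3 RARα control peaks. The one in Dnmt3a stood in intron 3 at chr12:3855959-3856333, with 17 fragments and a fold of 4.21. The nearest BATF control peak was 9342 bp away, and 1 of the 3 BATF peaks that Dnmt3a had in the RA list alone overlapped it. The one in Hdac7, in intron 1 at chr15:97821105-97821513, had 14 fragments and a fold of 3.02. BATF peaks of both conditions overlapped it, with BATF folds of 3.83 and 4.42. The one in Ep300, at chr15:81596578-81596818 in an intron annotated as a SINE repeat, had 13 fragments, a fold of 3.28 and its nearest BATF control peak 9330 bp away. With RA, no RARα peak was named for Dnmt3a, Hdac7 or Ep300.

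The other RARα control peaks lay far from the genes they named. The Eed peak at chr7:89917164-89917434 (13 fragments, fold 3.61) lay in a SINE repeat 37220 bp from Eed and 1251 bp from Hikeshi. The Tet2 peak at chr3:133394577-133394892 (12 fragments, fold 3.35) lay in an LTR repeat 68785 bp from Tet2, nearer to Ppa2, and 2052 bp from a BATF control peak of fold 5.37 that had no RA peak within 5 kb. Thus 2 of the 7 RARα control peaks, at Hdac7 and Tet2, had a BATF control peak within 5 kb (28.6%, 8.22 to 64.1), where 61.9% of all RARα control peaks did.

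With RA, the 2 RARα peaks were an intronic SINE of Crebbp at chr16:4141530-4141822 and an intergenic site 86151 bp from Hdac9 at chr12:35003246-35003539. Each had 9 fragments and a fold of 2.53, and both stood at the edge of the calling cutoff. Neither had a BATF RA peak within 5 kb, where 16.4% of all RARα RA peaks did.

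**Figure D5:**
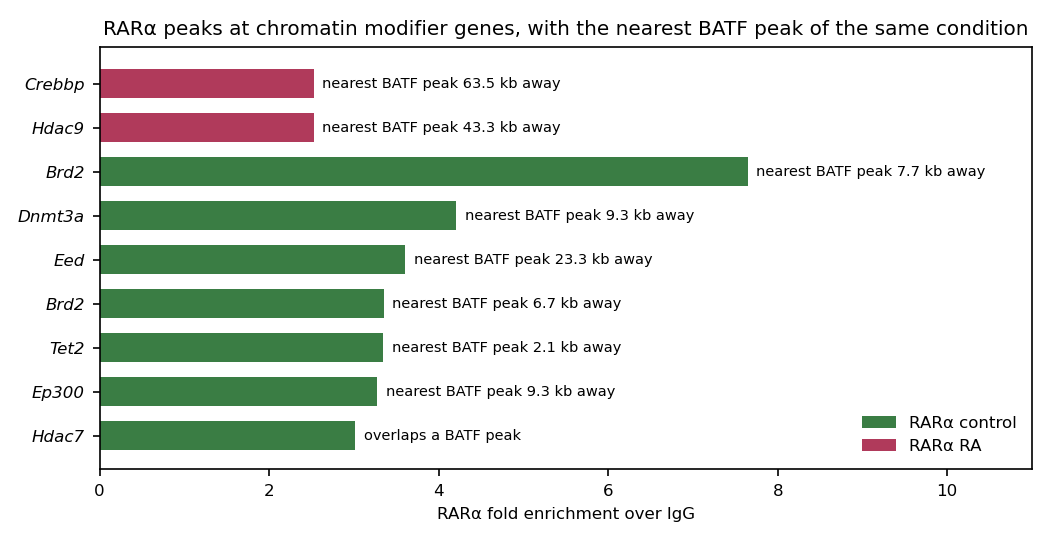
Fold enrichment over IgG of the 9 RARα peaks that named a chromatin modifier gene, from the control list (green) and the RA list (red), each with the distance to the nearest BATF peak of the same condition. The stronger Brd2 peak reaches 7.64 and the others lie between 2.53 and 4.21.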

How the data were processed

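The authors aligned the reads with Bowtie2, called peaks with MACS 2.2.7.1 on mm10 (cutoff p = 0.001 for RARα, 1e-05 for BATF) and annotated them with HOMER, which the submitters' notes name. The deposited pileup is a signal, the fragments at the summit. BATF control values carried a factor of 0.9875, which was divided out. The deposited fold enrichment is a ratio over the IgG level, which was recovered from it. The authors' p-value and q-value are on the -log10 scale. The headers deny that q was calculated, so it served only as an alternative cutoff.

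Members and lists were chosen with earlier results of these data known. Following the study, peaks of 2 lists up to 5 kb apart were shared, and pairs joined nearest midpoints. Between 94.7% and 95.5% of the peak names matched RefSeq genes of GRCm38.p6, from which distances were measured. Named genes had a RARα peak, the 2 highest BATF control folds of their role or the most peaks (5 genes), or held the largest rises and falls (3 each) or sites called in 1 condition. Other genes' values complete their role and were chosen after their values were seen. The peak steps were tested on simulated lists. No sequence was read, so motifs were not analysed here. Python 3.11.15, pandas 2.3.3 and scipy 1.17.1 were used. Some markers and listed genes are not reported here by name.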

Additional observations from a re-analysis of the deposited data

How the results depend on the processing

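No paired analysis was possible because each condition has 1 pooled list and no result comes from a test. For the same reason no replicate could be left out. Recomputing the 19 counts and shares under 113 alternatives, 19 of them chosen after seeing the data, moved 34 values. The RARα counts were the least stable. From 7 peaks at 6 genes in the control and 2 at 2 with RA, they went to 3 at 2 and 0 at 0 with a q of at most 0.05, to 1 at 1 and 0 at 0 with a fold of at least 5, and to 3 at 3 and 1 at 1 both within 10 kb of the gene and with the gene as the only name. With a -log10 p of at least 5, RA went to 0 peaks at 0 genes. The share of RARα control peaks near BATF went from 28.6% to 0% under the limits on p, q and fold, to 14.3% (1 of 7 peaks) by overlap or at 1 kb, and to 40.0% by the first name. For BATF, 160 control and 104 RA peaks went to 99 and 57 with a fold of at least 5, RA to 58 where -log10 p reached 10, and control to 101 with the gene as the only name. The share of BATF control peaks kept with RA, 78.1%, was 65.0% with a -log10 p of at least 10, 64.6% with a fold of at least 5, 84.6% within 10 kb of the gene, 68.1% at a distance of 1 kb and 58.8% by overlap. Thresholds on both lists also remove RA partners. The RA share, 96.2%, was 87.7% with a fold of at least 5. The control promoter share, 43.1%, was 53.4% by the first name and 54.5% by the only name. It lay below the RA promoter share (47.1%) in the main counts. The order was reversed with a fold of at least 5 (47.5% in the control and 40.4% with RA) and by the only name (54.5% and 52.9%). The share of pairs lower with RA, 63.2% of the 125 pairs within 5 kb with a median log2 ratio of -0.15, was 76.6% by overlap. Pairs within 5 kb can join different sites, as for a weak Kmt2a promoter peak and a neighbour (log2 ratio 2.15). Unless stated here, the cause of a move was not tested. The RARα peaks at these genes rest on 9 to 37 fragments, which limits what these lists can show.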

Other observations

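A few BATF peaks overlapped a chromatin modifier gene under the name of another gene and were therefore outside the counts above. Across one end of Kmt2d, and partly outside it, peaks named for Prkag1 had a fold enrichment of 9.72 in the control list (chr15:98830896-98832762) and 6.94 with RA (chr15:98831232-98831857), above the promoter peaks that carried the name Kmt2d. Within Chd4, a peak named for the microRNA gene Mir7045 had 5.37 in the control list (chr6:125099283-125099842).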
